A study of Canis lupus familiaris with 18 samples.

Results

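The genes described here are 134 of the 32220 gene IDs counted in MDCKI cells, a dog kidney line that grows as an epithelium. They were chosen by their levels in MDCKI cells that carry bPAC, an adenylyl cyclase from a bacterium that makes cyclic AMP under blue light. A level is given in CPM, the reads of a gene as counts per 1000000 gene reads of its library. L is the log2 of the ratio of 2 group means, each with 1 CPM added. A member had an L of -0.8 or lower between high light and dark, an L within 0.3 of 0 between low light and dark, and at least 10 CPM in its highest group. IDs that the rule itself leaves out, 4 of which met these conditions, were not included.

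The 18 libraries are RNA of parental MDCKI cells in the dark (3 libraries), under low light (3) or high light (2), and of MDCKI + bPAC cells in the dark (3), under low light (4) or high light (3). All cells had been plated for 16 h in medium with 0.5% serum, and the treatment then lasted 2 h. The parental cells differ from the others by lacking bPAC and received the same light. The labels give no size for either dose and do not say whether the bPAC line is 1 clone. Nor do they say that replicates are separate cultures. The spread behind each p-value is that between libraries and may be technical. The files name genes by Ensembl ID and 0 of the 32220 IDs matched the RefSeq table of dog genes. The members therefore have no names, roles or sequences here, and neither the kidney identity of the cells nor bPAC itself was checked by marker.

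Cyclic AMP is the second messenger of many hormones that act on kidney tubules, vasopressin among them. It binds the regulatory subunits of protein kinase A and frees the catalytic subunits, which phosphorylate proteins in the cytoplasm and, in the nucleus, transcription factors such as CREB. Phosphodiesterases break it down again. The series' title speaks of 2 phases in how protein kinase A answers cyclic AMP, and genes whose level differs at one dose of light and not at the other bear on how transcripts follow the dose. An RNA level depends on synthesis and on decay, which counts at the 3' end do not tell apart.

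Reads assigned to genes numbered 2638511 to 9610144 per library. In bPAC high light 41.7% to 44.4% of all reads aligned to more than 1 place, against 38.5% to 39.9% in the dark and 37.5% to 40.7% under low light in the same line. Parental cells stood at 39.6% to 40.4% in the dark, 39.7% to 42.0% under low light, and 38.9% and 44.2% in high light replicates 1 and 2. Parental low light replicate 3 and parental high light replicate 2 thus lie within the bPAC high light range. The part of these differences in the members' levels was not tested. A shift of the median gene bears on the rule. Over the 5946 genes at 10 CPM or more in some group, the median L in bPAC high light was -0.23 in plain CPM and 0.07 once libraries were scaled by TMM, a factor computed from the bulk of the genes. Low light medians were -0.09 and 0.02.

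**Figure D1:**
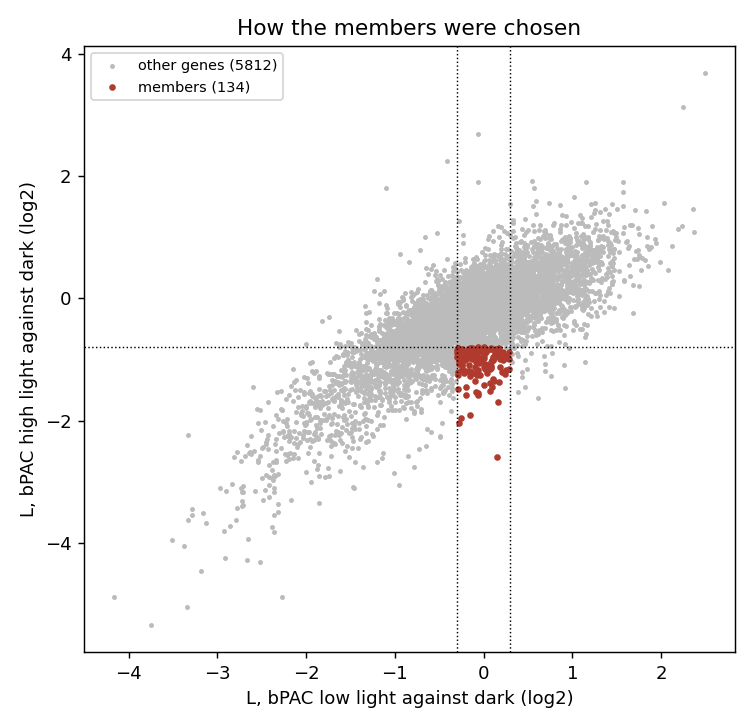
L of bPAC high light against dark (vertical, log2) and of bPAC low light against dark (horizontal, log2) for the 5946 genes with at least 10 CPM in some group. Each point is a gene, red points are the 134 members, and dotted lines are the limits of the rule at -0.8, -0.3 and 0.3.

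Members were a small part of the genes that stood lower in bPAC high light. Of 1294 genes with a high light L of -0.8 or lower, 855 also had a low light L of -0.8 or lower, and 134 kept within 0.3 of the dark level at low light. The mirror of the rule, an L of 0.8 or more at high light with the same limits at low light, found 21 genes. On TMM-scaled CPM the rule and its mirror found 64 and 65 genes, and 42 of the 64 were members. The numbers of genes below and above the dark level were thus unequal in plain CPM and near equal after TMM scaling. TMM centres the bulk of the genes by design, so near-equal numbers follow in part from the method. Whether many genes were lowered together was not tested. The last member inside the high light limit had an L of -0.802 and the first gene outside it -0.7996. The low light limits fell between -0.2989 and -0.3056 and between 0.289 and 0.316, and the limit on level between 10.1 and 9.71 CPM.

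The values that chose the members are described next, without a test. Most members were about 2-fold lower in bPAC high light than in bPAC dark: the median L was -0.99, the range -2.60 to -0.80, and 65 of 134 had an L of -1 or lower. Only 2 had an L of -2 or lower. Scaled by TMM, the members' median L in high light was -0.70, all 134 were below 0 and 47 were at -0.8 or lower. Together the members made up 0.943 ± 0.0714% (SD, n = 3) of gene reads in bPAC dark, 0.919 ± 0.0971% (SD, n = 4) in low light and 0.428 ± 0.0352% (SD, n = 3) in high light. In parental cells they made up 0.881 ± 0.0132% (SD, n = 3) in the dark, 0.959 ± 0.0664% (SD, n = 3) in low light and 0.883 ± 0.0663% (SD, n = 2) in high light.

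Members spanned a range of levels, and the rule's floor of 10 CPM in the highest group left out rarer transcripts. Their median level in bPAC dark was 30.4 CPM, with a range from 6.19 to 734 CPM, beside a median of 41.8 CPM for all genes at 10 CPM. The 90th percentile was 137 CPM for members and 279 CPM for all genes at 10 CPM. The members' median high light L differed little between ranges of level, but the rule's limit on this L kept every such median below the limit. Whether the size of the difference goes with the level was therefore not tested. Median high light L was -0.94 for the 7 members under 10 CPM in bPAC dark, -1.01 for the 58 from 10 to 30 CPM, -0.97 for the 47 from 30 to 100 CPM and -1.05 for the 22 above. Reads behind the lowest values were sometimes few. The shallowest bPAC high light count of a member was 1 read, and the median over members of that count was 38 reads.

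All 3 bPAC high light libraries carried the difference, library 3 least. Against the bPAC dark mean, the median member stood at -1.10 in high light library 1, -1.16 in library 2 and -0.92 in library 3, and 134 of 134 members were below the dark mean in each. All genes at 10 CPM had medians of -0.24, -0.35 and -0.17 in these libraries, in the same order. Of them 65.8%, 66.3% and 61.1% were below the dark mean. In the dark libraries themselves the members' medians were 0.05, 0.00 and -0.08. For 118 members all high light libraries lay below all dark libraries, where 35.7% of the genes at 10 CPM did so, and for 97 members below all other bPAC libraries, where 8.26% did so. The rule used these libraries, so nothing is read from these shares. In the fit described below, 71 members had an edgeR adjusted p under 0.05 as lower in bPAC high light than in the dark, as had 11.9% of all tested genes, and this count too is only a description of the choice.

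**Figure D2:**
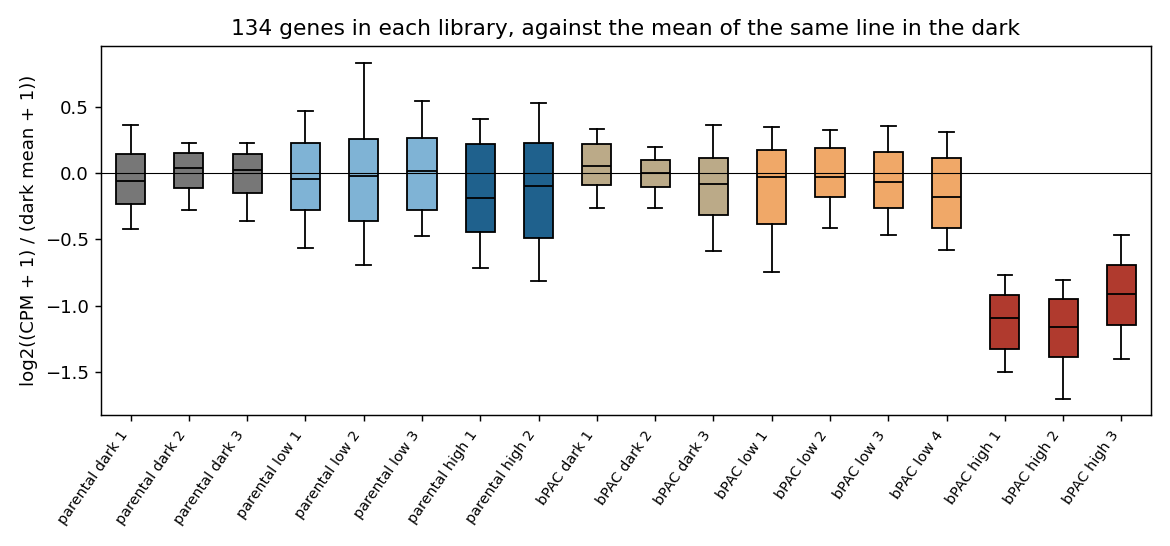
Level of the 134 members in each of the 18 libraries (horizontal), as log2 of CPM + 1 over the dark mean + 1 of the same line (vertical). Boxes give the quartiles, the line the median and whiskers the 10th and 90th percentiles over members. The 3 bPAC high light medians lie between -1.16 and -0.92 and all other medians between -0.19 and 0.05.

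The level at low light was closer to the dark on average than library by library. Medians against the dark mean were -0.03, -0.03, -0.07 and -0.18 in bPAC low light libraries 1 to 4. All genes at 10 CPM had medians of -0.12, -0.08, -0.09 and -0.18 there. The members within 0.3 of the dark mean numbered 76, 96, 86 and 72 in these libraries, where 28.0%, 38.1%, 35.7% and 23.8% of the genes at 10 CPM were, and 25 members were within 0.3 in all 4 (background 7.40%). For 98 members the 4 libraries lay on both sides of the dark mean (background 32.6%), for 28 all 4 lay below it (39.7%) and for 8 all 4 above it (27.7%). At least 1 low light library stood at -0.8 or lower for 20 members (background 35.8%). The ranges of low light and dark libraries overlapped for 128 members (background 53.6%). The rule's limit on the low light mean was set on these same libraries, so nothing is read from the gap between members and background. Low light libraries were also left out in pairs. Without libraries 1 and 4 the rule found 185 genes, 110 of them members. Without libraries 2 and 3 it found 102, 89 of them members.

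A single ID illustrates a mean that hides such a spread. ENSCAFG00000009414 had the lowest high light L, -2.60. It stood at 46.7, 40.3 and 5.22 CPM in bPAC dark, 73.6, 59.4, 1.45 and 2.49 CPM in low light and 5.59, 4.88 and 2.27 CPM in high light. Dark library 3 and low light libraries 3 and 4 were thus as low as high light, and the groups overlapped. Parental libraries varied too, with 14.6, 14.2 and 22 CPM in the dark, 31.4, 42.6 and 24.9 CPM in low light and 47.6 and 11.7 CPM in high light. Dark library 3, low light libraries 3 and 4 and high light library 3 were all below the rest of their bPAC groups for 9 members (6.72%), and for 7.85% of the genes at 10 CPM. They were all above the rest for 15 members (11.2%), and for 10.2% of those genes. Without these 4 libraries the rule found 218 genes, 93 of them members, and the part of this pattern in the choice was not tested.

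ENSCAFG00000001825, the next by high light L at -2.03, was steady within groups. It stood at 359, 327 and 337 CPM in bPAC dark, 266, 252, 291 and 314 CPM in low light and 65.0, 71.2 and 112 CPM in high light. No high light library came near the others, and each low light library was below each dark library. In parental cells the libraries held 370, 263 and 325 CPM in the dark, 330, 282 and 297 CPM in low light and 256 and 310 CPM in high light, and these ranges overlapped. Its fitted log2 change in parental high light was -0.12 (SE 0.21, edgeR adjusted p = 0.826).

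The members with the highest bPAC dark means were ENSCAFG00000009261 and ENSCAFG00000032813. ENSCAFG00000009261 stood at 762, 720 and 719 CPM in bPAC dark, 832, 688, 607 and 642 CPM in low light and 244, 232 and 288 CPM in high light. Its parental libraries held 829, 672 and 798 CPM in the dark, 838, 908 and 639 CPM in low light and 998 and 628 CPM in high light. Only the bPAC high light libraries lay apart from the rest for this gene. ENSCAFG00000032813 stood at 828, 650 and 591 CPM in bPAC dark, 818, 1005, 794 and 514 CPM in low light and 330, 363 and 257 CPM in high light, with no overlap between high light and the other bPAC groups. In the dark it was higher in bPAC than in parental cells, whose values follow with their test.

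The parental libraries took no part in the choice by L, so light in parental cells could be tested. They could only help a gene to reach 10 CPM, which 127 of the members did in the bPAC groups alone. All 134 members passed the filter on low counts. The test was edgeR's quasi-likelihood test over 8530 genes, called at an adjusted p under 0.05, and fitted changes are on TMM-scaled counts.

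In parental high light no member was called different from the dark, in a comparison where 0.176% of all tested genes were called (15 of 8530). At an unadjusted p under 0.05 there were 19 members (14.2%), beside 15.1% of all tested genes. DESeq2 called 2 members, both lower, and 2.06% of its genes with an adjusted p. Without the filter on low counts edgeR called 3 members (2 higher, 1 lower) and 1.36% of genes, and limma-voom called 0 members and 0.0586% of genes. The members' median fitted log2 change was -0.03, ranging from -1.26 to 1.21, against -0.02 over all tested genes, and 51.5% of members and 51.5% of all tested genes were below 0. The median SE of a member was 0.29 with 2 high light libraries. A change of the size seen in bPAC high light, a median fitted value of -0.75, is 2 to 3 such SEs. In counts drawn at these depths 23.2% of 2-fold changes in this comparison were recovered. Those changes were larger than the members' median and were placed at random among all tested genes, whose median SE was 0.35. The recovery of the members' own change was not computed. A count of 0 therefore does not show that the genes were unchanged.

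The members' parental high light L spread about as widely as that of other genes. An L of -0.8 or lower occurred for 5 members (3.73%), where 6.22% of the genes at 10 CPM had one, and an L of 0.8 or higher for 3 members (2.24%), where 3.43% did. Within 0.3 of 0 were 75 members (56.0%), beside 50.5%. Both conditions on L, applied to the parental groups, held for 2 members and for 26 of the 5946 genes (0.437%). Both parental high light libraries lay below all 3 dark libraries for 28 members (20.9%, background 17.6%) and above them for 11 (8.21%, background 16.2%).

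**Figure D3:**
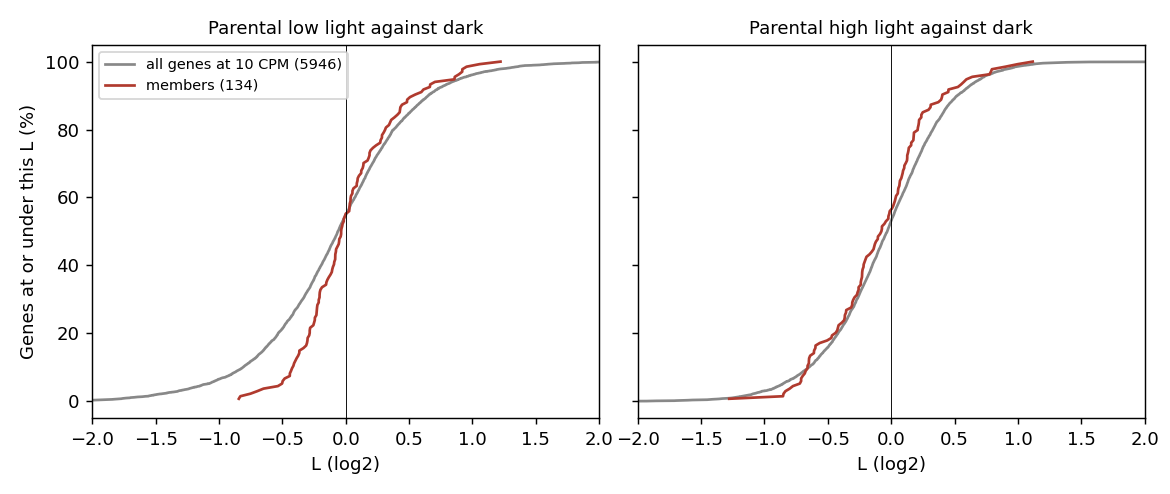
Share of genes (vertical, %) at or under a given L (horizontal, log2) in parental low light (left) and high light (right) against parental dark, for the 134 members and for all 5946 genes at 10 CPM. The medians of members and all genes are -0.03 and -0.06 at low light and -0.08 and -0.03 at high light, and the members' curve is narrower at low light.

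The members with the smallest p in parental high light were lower or higher by at most about 2.4-fold. ENSCAFG00000003905 held 24.7, 38.1 and 38.9 CPM in parental dark, 21.6, 19.9 and 14.3 CPM in low light and 12.8 and 14.0 CPM in high light. The groups did not overlap between dark and light, and the fitted log2 change in high light was -1.26 (SE 0.29, edgeR adjusted p = 0.0759). DESeq2 called it (adjusted p = 0.0102), and so did edgeR without parental dark replicate 1 (adjusted p = 0.0490) or without the filter (adjusted p = 0.0403). In bPAC cells it held 13.7, 11.4 and 9.07 CPM in the dark and 4.05, 3.55 and 5.31 CPM in high light.

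ENSCAFG00000017216 held 31.7, 38.1 and 41.8 CPM in parental dark and 22.3 and 18 CPM in high light, a fitted log2 change of -0.81 (SE 0.22, edgeR adjusted p = 0.103). DESeq2 called it (adjusted p = 0.0357). Its bPAC libraries held 28.8, 34.2 and 34.1 CPM in the dark and 20.4, 16.4 and 15.5 CPM in high light, so that its L was -0.85 in each line. In the other direction, ENSCAFG00000016146 held 69.7, 63.5 and 30.2 CPM in parental dark and 74.2 and 115 CPM in high light (log2 change 0.84, SE 0.27, edgeR adjusted p = 0.152). ENSCAFG00000002975 held 21.5, 19.6 and 18.9 CPM in parental dark and 25.3 and 33.2 CPM in high light (log2 change 0.60, SE 0.25, edgeR adjusted p = 0.276). None of these 4 passed edgeR's threshold as the test was set up.

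In parental low light 7 members were called, 5 higher and 2 lower, or 5.22% where 11.4% of all tested genes were called. For calls lower the background was 4.68% and for calls higher 6.76%. The median fitted log2 change was 0.02, against -0.01 over all tested genes, and 44.8% of members and 51.0% of all tested genes were below 0. In plain CPM 82 members (61.2%) had a parental low light L within 0.3 of 0, as had 43.0% of the genes at 10 CPM. The rule asked for the same limits at low light in bPAC cells and did not use these libraries, and the difference of the shares was not tested. An L of -0.8 or lower occurred for 2 members (background 10.3%) and of 0.8 or higher for 8 (background 6.64%). All 3 low light libraries lay below all dark libraries for 12 members (8.96%, background 19.6%) and above them for 15 (11.2%, background 18.2%). The count of 7 fell to 0 without parental dark replicate 2 or parental low light replicate 2. It was 2 without parental dark replicate 3 and 3 without parental low light replicate 1. It was 4 without bPAC dark replicate 2, bPAC low light replicate 3, parental high light replicate 2 or bPAC high light replicate 1, which act through the shared estimate of spread, the scaling and the set of tested genes, and 4 with only the parental groups in the fit.

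The parental low light calls with the smallest p went in either direction. ENSCAFG00000032813 rose from 334, 161 and 180 CPM in parental dark to 465, 639 and 474 CPM in low light, with no overlap, and stood at 265 and 331 CPM in high light. The fitted change was 2.40-fold (log2 1.27, SE 0.28, edgeR adjusted p = 0.00812), and the call was lost without parental dark replicate 2 (adjusted p = 0.0711) or parental low light replicate 2 (adjusted p = 0.0643). ENSCAFG00000010704 rose from 5.93, 7.56 and 4.35 CPM to 13.3, 12.7 and 9.69 CPM (log2 change 1.06, SE 0.29, edgeR adjusted p = 0.0241) and held 5.26 and 4.74 CPM in high light. Its call was lost without parental dark replicate 1, 2 or 3 or parental low light replicate 1 or 2, at adjusted p from 0.0537 to 0.104.

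Lower in parental low light were ENSCAFG00000020049 and ENSCAFG00000003905. ENSCAFG00000020049 fell from 30.5, 33.2 and 24.2 CPM to 18.3, 17.3 and 19.4 CPM (log2 change -0.62, SE 0.19, edgeR adjusted p = 0.0370), and its high light libraries, at 18.1 and 17.0 CPM, were as low. In bPAC cells it held 21.7, 21.4 and 23.1 CPM in the dark, 18.2, 18.9, 20.9 and 18 CPM in low light and 9.65, 9.76 and 12.5 CPM in high light. Its parental call was lost without parental dark replicate 1 or 2, without any 1 of the 3 parental low light replicates, without the filter and with only the parental groups. For ENSCAFG00000003905 the log2 change was -0.79 (SE 0.25, edgeR adjusted p = 0.0458). That call was lost on leaving out any 1 of 10 libraries: each parental low light replicate, parental dark replicate 2 or 3, each parental high light replicate, bPAC dark replicate 2, bPAC low light replicate 3 and bPAC high light replicate 1. It was also lost without the filter (adjusted p = 0.118).

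In parental cells no member was called between the 2 doses, where 0.0117% of all tested genes were (1 of 8530), and 16 members had an unadjusted p under 0.05 (11.9%, beside 12.7% of all tested genes). DESeq2 and limma-voom also called 0 members. The median fitted log2 change of the members was -0.11 and that of all tested genes 0.02, with 59.0% of members and 48.5% of all tested genes below 0. ENSCAFG00000004420 held 130, 153 and 172 CPM in parental low light and 87.5 and 106 CPM in high light (log2 change -0.64, SE 0.21, edgeR adjusted p = 0.246). ENSCAFG00000018732 held 48.5, 49.4 and 66.4 CPM in low light and 78.7 and 75.7 CPM in high light (log2 change 0.51, SE 0.21, edgeR adjusted p = 0.330). ENSCAFG00000010704, raised in low light, and ENSCAFG00000002975 were the other members with the smallest p (edgeR adjusted p = 0.205 and 0.324).

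**Figure D4:**
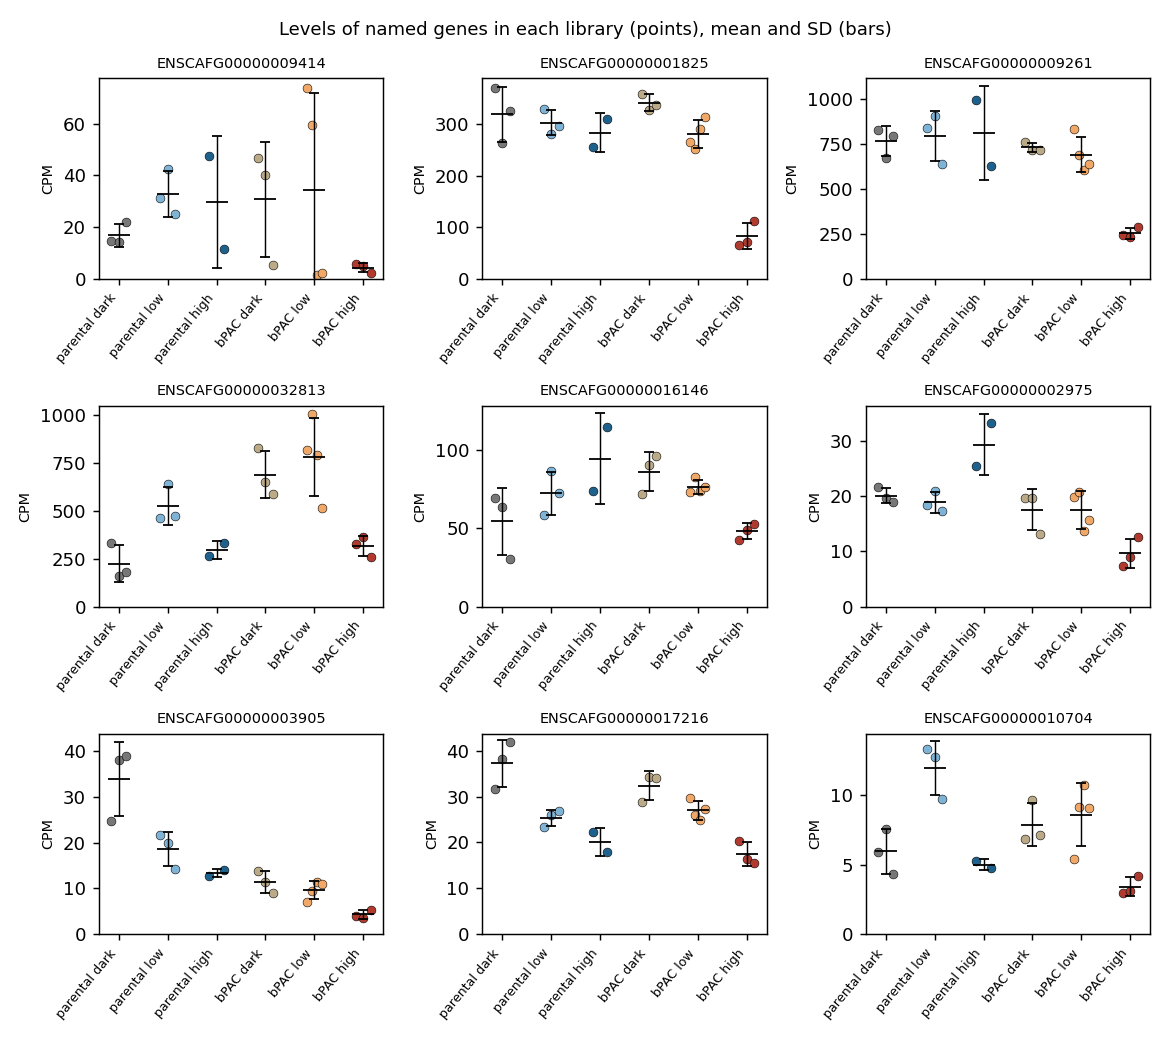
CPM (vertical, from 0) of 9 members named in the text in every library (points), by line and light (horizontal), with the mean and SD of each group (bars). ENSCAFG00000001825 and ENSCAFG00000009261 are low in the 3 bPAC high light libraries alone, ENSCAFG00000009414 is also low in bPAC dark library 3 and low light libraries 3 and 4, and ENSCAFG00000003905 is lower in lit than in dark parental libraries.

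Set side by side without a test, because the rule used the bPAC libraries, the lines had a small median difference over members outside high light. Single members differed in either direction. In the dark the quartiles of this L were -0.35 and 0.20 for members, beside -0.34 and 0.28 for all genes at 10 CPM. The median L of bPAC against parental cells was -0.06 in the dark, -0.11 in low light and -0.96 in high light. For all genes at 10 CPM these medians were -0.05, -0.13 and -0.29. In high light 88 members had an L between the lines of -0.8 or lower, with 19.9% of genes at 10 CPM doing so. For 75 members all 3 bPAC high light libraries lay below all 15 other libraries (background 5.28%). The fitted line by high light interaction was called for 2 members, both lower, where 0.399% of tested genes were called lower. They were ENSCAFG00000001825 and ENSCAFG00000009261, with interaction log2 values of -1.63 and -1.37, and nothing is read from this count either.

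A few members differed in level between the lines in the dark, with an L of 1 or more for 6 members (background 4.52%) and of -1 or less for 9 (background 3.41%). ENSCAFG00000011172 had 534, 558 and 522 CPM in bPAC dark and 111, 51.4 and 46.7 CPM in parental dark. In bPAC low light its libraries were far apart, at 296, 760, 614 and 206 CPM, and in high light they held 190, 168 and 179 CPM. ENSCAFG00000031675 had 30, 31.4 and 20.3 CPM in bPAC dark and 6.04, 3.32 and 4.60 CPM in parental dark. In the other direction, ENSCAFG00000003744 had 4.58, 3.92 and 12.6 CPM in bPAC dark and 14.4, 23.6 and 26.6 CPM in parental dark. It reached the floor of 10 CPM in parental groups alone, unlike the 127 members that reached it in bPAC groups. Members let in through parental groups are higher there by the choice, so nothing is read from the line difference of ENSCAFG00000003744. How many of the 9 are of this kind was not counted. ENSCAFG00000003905, given above, was also lower in bPAC dark.

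The members' courses over the 8 parental libraries varied. Pearson's r of each member's log2(CPM + 1) with the median member lay between -0.83 and 0.94, with a median of 0.16 over members. Each r is over 8 libraries that share groups and depth, and each member is part of the median. No such r was computed for other genes. Most like the median were ENSCAFG00000000784 (r = 0.94) and ENSCAFG00000010734 (r = 0.88). ENSCAFG00000000784 held 29.4, 37.2 and 29.8 CPM in parental dark, 23.4, 26.2 and 33.7 CPM in low light and 13.5 and 21.2 CPM in high light, and is 1 of the 2 members that met both conditions on L in parental cells. Least like it were ENSCAFG00000009242 (r = -0.83) and ENSCAFG00000011842 (r = -0.79), which held 15 and 10.5 CPM and 328 and 172 CPM in parental high light against means of 8.26 ± 0.584 and 115 ± 25.8 CPM (SD, n = 3) in the dark.

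The choice was also repeated with 1 bPAC library left out at a time, and the genes found were measured in that library. Without high light library 1 the rule found 139 genes, and their median in that library against the dark mean was -0.98, beside -0.97 in the libraries used. Without library 2 it found 119 genes, with a median of -1.08 there and -1.01 in the libraries used. For library 3 the 194 genes found without it had a median of -0.66 there and -1.03 in the others. In library 3, 182 of them (93.8%) were below the dark mean, beside 61.1% of the genes at 10 CPM. The dark libraries are the same on either side of these comparisons and helped to choose the genes. Part of a low value in the left-out library was thus fixed by the choice. All genes at 10 CPM had medians of -0.24, -0.35 and -0.17 in the 3 libraries.

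For low light, a left-out library departed more from the dark than the limit of 0.3 for about 1 gene in 2. Of the genes chosen without low light library 1, 2, 3 or 4, 43.2%, 62.0%, 60.0% and 40.0% were within 0.3 of the dark mean in the library left out, with medians of -0.18, -0.06, -0.15 and -0.28. All genes at 10 CPM had medians of -0.12, -0.08, -0.09 and -0.18 in these libraries, and 28.0%, 38.1%, 35.7% and 23.8% of them were within 0.3. The dark libraries helped to choose the genes here too, so part of the closeness to the dark was fixed by the choice. For a left-out dark library against the high light mean, the medians were 1.09, 0.99 and 0.84 in libraries 1, 2 and 3, beside 1.00, 0.99 and 0.99 in the libraries used and 0.25, 0.20 and 0.23 for all genes at 10 CPM. There the shared high light libraries helped to choose the genes in the same way. Across the 10 choices that leave out 1 bPAC library, 40 members were found every time and 94 were missed at least once.

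**Figure D5:**
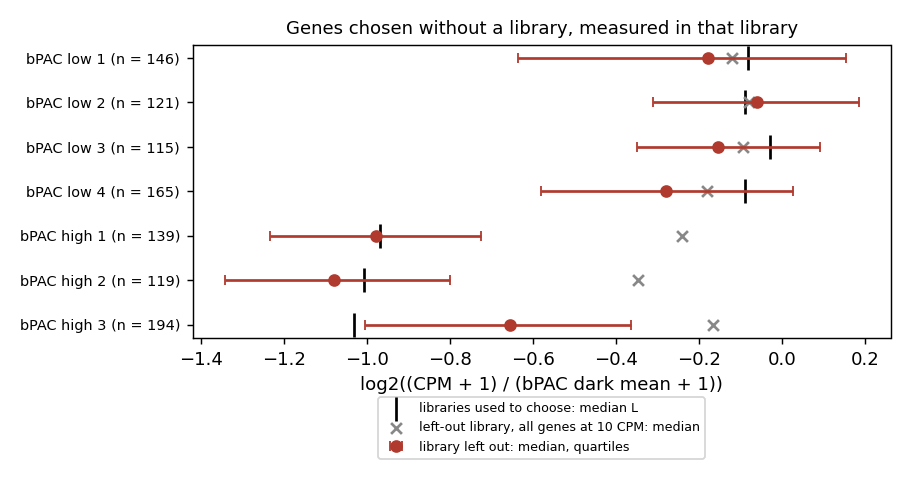
Genes chosen without a bPAC library (vertical, with their number), measured in that library against the bPAC dark mean (horizontal, log2). Red points and bars are medians and quartiles in the library left out, black marks the median L in the libraries used and grey crosses the median of all genes at 10 CPM, with high light library 3 at -0.66 against -1.03.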

How the data were processed

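Per the labels' protocols, RNA came from Lexogen's SPLIT method and its 18 libraries from QuantSeq 3' FWD, which reads near the 3' end. Each library's file, deposited by the authors, holds unnormalised read counts as whole numbers, with 32220 gene IDs and 5 rows of reads without a gene. The submitters' processing notes name CanFam3.1 as the build. The sources used here name no aligner, counter or annotation. Reads shared with a near copy, or beyond an annotated 3' end, are missing from these counts.

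The 5 rows were left out of library sizes, and genes took 29.4% to 33.9% of reads. Replicate pairs differed beyond sampling noise (chi-square over its degrees of freedom 9.41 to 72.7 in 19 pairs). All 18 libraries entered 1 model of 6 groups in edgeR 4.0.16 (R 4.3.3) with filterByExpr (minimum count 10), TMM, robust glmQLFit and glmQLFTest, and Benjamini-Hochberg adjustment over 8530 genes at 0.05. An SE is the absolute log2 change over the square root of F. The script was tested on counts drawn from the real means and library sizes, with known changes in 200 genes. Alternatives were DESeq2 1.42.0, limma-voom (limma 3.58.1), other scaling and filters, and leaving out each library.

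The members, and the tests on them, were chosen with earlier results of these data known. IDs matched no gene name, so planned gene lists and marker checks were not run. Named members are at most 2 per direction and comparison: the lowest high light L, the highest bPAC dark mean, the smallest p per parental contrast, the largest fitted line difference in the dark, and the profiles most and least like the median member.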

Additional observations from a re-analysis of the deposited data

Results flagged for a closer look

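Among the 19 named members, 6 lay on opposite sides of the dark means of the lines at high light. Every bPAC high light library lay below the mean of the bPAC dark libraries, on the scale of log2(CPM + 1). Every parental high light library lay above that of the parental dark libraries. The share of all members or all genes doing so was not counted, so nothing is read from the 6. None of the 6 was called in parental high light, where 51.5% of all tested genes had a fitted change below 0. For ENSCAFG00000032813 parental dark replicate 1 stood above both high light libraries. The bPAC direction was fixed by the rule, several of these IDs were named for being higher in parental light, and the difference between the lines is given without a test. Taken as the bPAC minus the parental change of L, it was -1.33 for ENSCAFG00000002975, -1.76 for ENSCAFG00000009242, -2.35 for ENSCAFG00000011842, -1.61 for ENSCAFG00000016146, -1.22 for ENSCAFG00000018732 and -1.52 for ENSCAFG00000032813. Parental high light has 2 libraries, and for ENSCAFG00000011842 these stood at 328 and 172 CPM. At low light the same opposition occurred for ENSCAFG00000016146, with a difference of -0.58, also not tested. Its parental dark libraries held 69.7, 63.5 and 30.2 CPM, and its parental direction at low light rests on the last of these. No named member had 1 bPAC low light library far from the other 3, and 1 of all 134 members had. The limit used marks about 1 in 20 groups of 4 independent normal values. These values were bounded by the rule and come from shared libraries, so that rate is not set against the count.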

How the results depend on the processing

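The rule found 134 genes, and 64 with TMM-scaled CPM. The number was 96 with a pseudocount of 5, 171 with group medians and 127 with the CPM floor taken over the bPAC groups, and 115 to 194 on leaving out 1 bPAC library. In a choice made after seeing the data, leaving out bPAC dark 3, low light 3, low light 4 and high light 3 together gave 218, of which 93 were members. The cause was not tested. Members called in parental high light numbered 2 with DESeq2, 3 without the filter and 0 to 1 on leaving out 1 library. In parental low light they numbered 4 with only the parental groups, 6 to 10 under the other alternatives to scaling, test and filter, and 0 to 9 on leaving out 1 library. Between high and low parental light the count was 0 under each of these alternatives and on leaving out any 1 library. For the 9 members named for a parental contrast, the change in that contrast did not reverse its sign under them. No paired analysis was possible because the labels give groups no shared replicate numbers. Replicate numbers here follow the order of the serial numbers in the sample titles, which run in blocks by group. With 2 to 4 libraries per group, 21.2% of 2-fold and 71.3% of 4-fold changes were recovered for parental low light in counts drawn with known changes.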

Other observations

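bPAC dark library 3, low light libraries 3 and 4 and high light library 3 lay together in some members beyond ENSCAFG00000009414. The pattern was first noticed in that ID and was about as frequent in all genes at 10 CPM. How often it would arise among libraries that vary independently was not computed. All 4 libraries were below the rest for 6.72% of members and 7.85% of those genes, and above it for 11.2% and 10.2%. All 4 were below the rest of their groups for ENSCAFG00000011842, at 164, 147 and 62.1 CPM in bPAC dark, 289, 205, 40.7 and 54.3 CPM in low light and 58.7, 76.1 and 22 CPM in high light. All 4 were above the rest for ENSCAFG00000003744, at 4.58, 3.92 and 12.6 CPM in the dark, 3.50, 2.76, 11.9 and 7.75 CPM in low light and 1.96, 3.11 and 5.31 CPM in high light. The labels name no batch for these libraries. Over the 2 doses in parental cells, 56 members (41.8%) had an L below 0 at both, beside 40.3% of the genes at 10 CPM, and 42 members (31.3%) had an L above 0 at both, beside 32.5%.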
